A study of Mus musculus with 18 samples.

Results

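The CCAAT/enhancer binding proteins (C/EBPs) were followed at the RNA level through 5 genes, *Cebpa*, *Cebpb*, *Cebpd*, *Cebpe* and *Cebpg*, chosen by name as the family members that share the C/EBP DNA-binding domain. They are 5 of the 20115 genes named in the table of developmental stages and of the 20268 genes named in the table of fibroblasts, and all 5 were present in both.

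RNA-seq of ribosome-depleted RNA was carried out on 18 mouse samples of strain 129. Of these, 10 came from 1 ESC line with a *Brachyury* GFP reporter that was grown on feeder MEFs and differentiated in vitro, as 2 replicates of each of 5 stages: undifferentiated embryonic stem cells (ESC), mesoderm sorted as Bry:GFP+/Flk1- (MES), hemangioblasts sorted as Bry:GFP+/Flk1+ (HB), CD41+ hematopoietic progenitors (HP) and CD11b+ macrophages derived from CD41+ cells (MAC). The study's pathway also has a hemogenic endothelium stage between HB and HP, which is not among these samples. The other 8 samples were mouse embryonic fibroblasts (MEFs), as 1 library per condition: untreated (uFIB) or labelled SL (Scl/Lmo2), SFGL (Scl/Fli1/Gata2/Lmo2) or FGL (Fli1/Gata2/Lmo2), each at 12 and 21 days. *Scl* is another name of *Tal1*. The MEFs came either from wild-type embryos or from iTal1-2A-GFP mice, whose rtTA and TRE-TAL1 cassettes give TAL1 on doxycycline. FLI1, GATA2 and LMO2 were delivered by lentivirus, and the study describes an expression vector for TAL1 as well. The labels do not say which of the 2 kinds of MEF a library was made from. Treated MEFs were kept in a hematopoietic medium with cytokines, among them IL3, IL6, GM-CSF and M-CSF.

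C/EBPs are basic leucine zipper factors: the basic region contacts DNA and the zipper joins 2 family members, or a member and a related factor, into a dimer. In blood, C/EBPα is needed for granulocyte and monocyte precursors, C/EBPβ is prominent in macrophages and in granulocyte production under stress, C/EBPδ is induced by inflammatory signals, and C/EBPε acts late in neutrophils and eosinophils, where it is required for granule genes. C/EBPγ lacks an activation domain of its own and works through its partners, among them ATF4. Outside the blood, C/EBPβ and C/EBPδ act early and C/EBPα late in fat cell differentiation, so embryonic fibroblasts, which can become fat cells, are not a tissue free of C/EBPs.

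Gene positions are those of the deposited tables, on GRCm38. *Cebpa* lies at chr7:35119293-35121931 on the plus strand and *Cebpg* at chr7:35046422-35056566 on the minus strand, so both genes are neighbours that point away from each other, with 62720 bases between their start sites in the GENCODE annotation, where *Cebpg* starts at 35056573. *Cebpb* lies at chr2:167688915-167690418 (plus strand) and *Cebpe* at chr14:54710363-54712174 (minus strand). *Cebpd* starts at chr16:15887286 on the plus strand, but its deposited locus runs on to 16146833, across the opposite-strand gene *Spidr*, while the gene itself ends at 15891031 in the GENCODE annotation. *Cebpa*, *Cebpb* and *Cebpd* have 1 exon each in their first annotated transcript and *Cebpe* and *Cebpg* have 2. Genes on the other strand also overlap *Cebpa* (Gm45091), *Cebpb* (Tmem189) and *Cebpg* (Gm45095). The study made density profiles of the stage reads for each strand, but whether strand was used in the FPKM values is not given in the sources used here; if it was not, reads of such partners and of the member were counted together.

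Promoter sequences were available from RefSeq (GRCm38.p6) for 3 of the 5 members, *Cebpa*, *Cebpb* and *Cebpg*, and are shown because they span the range of differences from HP to MAC, which were largest in *Cebpa* and smallest in *Cebpg*. Each line gives the 250 bases before the start site, 5′ to 3′ on the strand of the gene, with motif matches in capitals.
*Cebpa*, chr7:35119043-35119292 (plus strand): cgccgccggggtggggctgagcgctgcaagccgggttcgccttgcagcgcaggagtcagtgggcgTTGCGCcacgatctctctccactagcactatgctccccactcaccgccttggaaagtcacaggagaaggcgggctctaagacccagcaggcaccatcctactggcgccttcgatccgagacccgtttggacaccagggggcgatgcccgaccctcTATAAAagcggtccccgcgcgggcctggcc
*Cebpb*, chr2:167688665-167688914 (plus strand): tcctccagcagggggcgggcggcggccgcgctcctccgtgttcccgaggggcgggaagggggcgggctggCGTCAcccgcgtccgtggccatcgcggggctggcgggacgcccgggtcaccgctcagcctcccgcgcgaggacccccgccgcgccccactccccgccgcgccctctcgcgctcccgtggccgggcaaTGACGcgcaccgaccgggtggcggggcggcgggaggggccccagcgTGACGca
*Cebpg*, chr7:35056567-35056816 (minus strand): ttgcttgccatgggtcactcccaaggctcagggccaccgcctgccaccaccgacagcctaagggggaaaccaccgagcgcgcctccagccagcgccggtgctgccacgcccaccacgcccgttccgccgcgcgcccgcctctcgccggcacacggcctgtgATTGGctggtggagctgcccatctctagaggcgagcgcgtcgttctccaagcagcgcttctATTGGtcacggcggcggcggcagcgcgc

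5 motifs were searched on both strands, with none of the matches overlapping another. They were TTGCNNAA (a pair of C/EBP half-sites), TTGCGC (a C/EBP core), CCAAT (the CCAAT box), TATAAA (the TATA box) and TGACG (one arm of a cAMP response element, which CREB and ATF factors bind). The *Cebpa* window held TTGCGC from -185 to -180 relative to the start site, which 5.34% of 32851 RefSeq promoters of the same length hold, and TATAAA from -30 to -25, which 12.4% hold. The *Cebpb* window held TGACG at 3 places, starting at -180 (as CGTCA on this strand), -53 and -7, and 17.8% of promoters held at least 1. The *Cebpg* window held CCAAT at 2 places, starting at -89 and -28 (both as ATTGG), and 33.8% of promoters held at least 1. TTGCNNAA had no match in these 3 windows and was present in 9.56% of all promoters. The GC content of the windows was 66.4% for *Cebpa*, 81.6% for *Cebpb* and 70.8% for *Cebpg*, against a median of 52.4%. A match is a run of letters and no measurement of binding.

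All levels are FPKM (fragments per transcript length and per mapped reads) as the authors deposited them, 1 value per stage in which both replicates were combined and 1 value per MEF library. No value therefore has a replicate spread, no test between stages or within a day was run, and a difference is called when it reached 2-fold after adding 1 to each FPKM, provided that one of both columns reached 1 FPKM. The share of all genes that met the same limits is given with the members and, where list genes are counted, with the lists. For the MEFs, 1 fit with limma took both days together, with treatment and day as terms. It was added after the values were seen and treats the days, which are different conditions, as the replicates. The tables were normalized separately, and levels are compared within a table. The read depth behind a value is not held by FPKM. In bulk RNA, fewer cells of a type and less RNA per cell cannot be told apart.

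Some columns stood apart from their group. Summed FPKM was 383028 in MAC and between 180904 and 202139 in the other stages, and the median of all genes was 0.45 higher on the log2 scale in MAC than in HP, 0.13 higher in HB than in MES and 0.13 lower in HP than in HB. The 8 macrophage markers summed to 2636 FPKM in MAC and to at most 11.4 elsewhere, and the 7 fibroblast markers to at most 60.9 FPKM, in HP. The 5 pluripotency markers summed to 638 FPKM in ESC and still to 285 in MES. The 6 red cell markers summed to 6857 FPKM in HP, against 4.47 in HB and 22.3 in MAC. The 5 megakaryocyte markers summed to 91.3 FPKM in HP and 283 in MAC, but their median was lower in MAC (0.871 FPKM) than in HP (4.05). Of the 4 tested, *Pf4* alone was at least 2-fold higher in MAC, where 33.4% of all genes were. *Gp9*, *Gp1bb* and *Itga2b* were lower, where 13.9% of all genes were. In the MEF table, the library labelled FGL carried 7.04 FPKM of *Tal1* at day 12, against 0.0414 in uFIB, and 3.35 FPKM of *Fli1* at day 21, against 3.02 in uFIB. Both run against the label, so those libraries are called the libraries labelled FGL. *Lmo2* (36.2 and 66.5 FPKM) and *Gata2* (21.9 and 35.1 FPKM) were above uFIB in them on both days, as the label has it. SL carried 46.7 FPKM of *Fli1* and 68.8 of *Gata2* at day 12, and 34.4 and 62.6 at day 21, though neither is on its label. In SFGL, whose label has both, *Fli1* was lower than in SL, at 41.2 and 27.8 FPKM, and *Gata2* higher, at 110 and 132 FPKM. The untreated library of day 21 held 52.5 FPKM of the 7 neutrophil markers, most of it *Ngp* at 32.5 FPKM, against 9.62 FPKM at day 12. Relative depth, estimated from the lowest values, ran from 0.586 to 1.56 times that of uFIB at day 12, although only 14.9% to 19.0% of low genes shared the step this rests on.

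Across the stages, *Cebpa* and *Cebpb* were low in ESC, MES and HB, higher in HP and highest in MAC, while *Cebpg* was the most level of the 5. *Cebpa*, the gene of the factor that granulocyte and monocyte precursors need, had FPKM values of 0.736 (ESC), 0.277 (MES), 0.340 (HB), 2.42 (HP) and 59.2 (MAC). Under 1 FPKM until HB, it was 7.12-fold higher in HP than in HB and 24.5-fold higher in MAC than in HP.

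*Cebpb* had FPKM values of 2.41 (ESC), 4.57 (MES), 2.88 (HB), 13.5 (HP) and 140 (MAC). It was above *Cebpa* at every stage, was 4.70-fold higher in HP than in HB, and 10.4-fold higher in MAC than in HP. Its order across stages thus put ESC, HB and MES lowest and close together, and HP and MAC apart from them; with 1 value per stage, no spread says whether neighbours in this order differ.

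*Cebpd*, the gene of the inflammation-induced member, had FPKM values of 1.57 (ESC), 1.86 (MES), 1.31 (HB), 3.20 (HP) and 7.63 (MAC). The locus of *Cebpd* as deposited also spans *Spidr*, so the small differences of this gene are less certain than those of the others. *Cebpe*, the gene of the late granulocyte factor, stayed under 1 FPKM in ESC (0.120), MES (0.124), HB (0.0332) and HP (0.403) and measured 2.52 FPKM in MAC. *Cebpg*, which encodes the partner without an activation domain, had FPKM values of 5.50 (ESC), 5.18 (MES), 5.55 (HB), 7.04 (HP) and 15.0 (MAC).

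**Figure D1:**
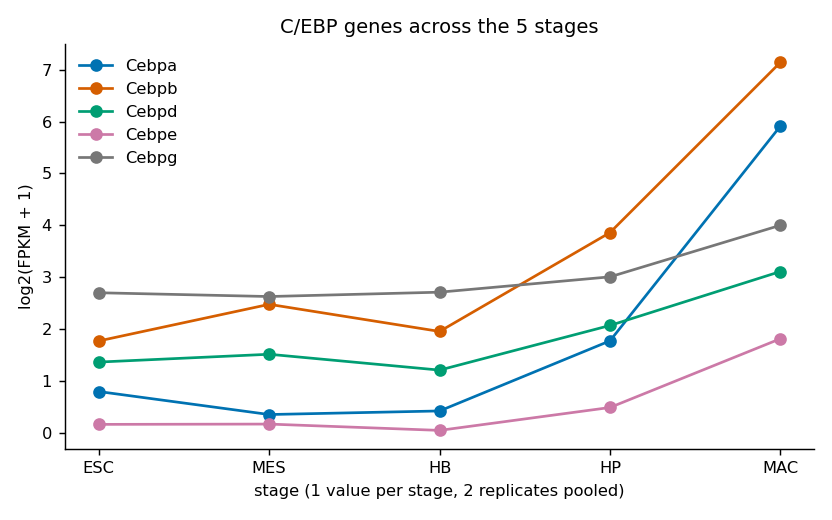
log2(FPKM + 1) of the 5 C/EBP genes at each of 5 stages, 1 point per stage in which the authors pooled 2 replicates, with lines joining the points of a gene. Cebpa climbs from 0.340 FPKM in HB to 59.2 in MAC and Cebpb from 2.88 to 140, while Cebpg stays between 5.18 and 15.0.

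From ESC to MES, 0 of the 3 members tested were at least 2-fold higher or lower, where 6.94% of all genes were higher and 7.31% lower. From MES to HB the count was again 0 of 3, with 2.52% higher and 3.3% lower among all genes. From HB to HP, *Cebpa* (log2 difference 1.35) and *Cebpb* (1.91) were higher among the 4 members tested, where 8.87% of all genes were. *Cebpd* (0.86) and *Cebpg* (0.30) did not reach the limit. These low values depend on the pseudocount: with 0.1 in place of 1, the difference was 2.52 for *Cebpa* and 1.22 for *Cebpd*, which then passed. The red cell markers were higher in HP than in HB for 6 of 6 genes, and their part in these differences was not tested.

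From HP to MAC, *Cebpa* (log2 difference 4.14), *Cebpb* (3.28), *Cebpe* (1.33) and *Cebpd* (1.04) passed the limit and *Cebpg* (0.99) lay just under it, to pass it (1.08) with a pseudocount of 0.1. So many genes were higher in MAC, 33.4% of all tested, that passing this limit was a common event. Among 10844 genes tested, the difference of *Cebpa* ranked 316 and that of *Cebpb* 574 from the top. When the stages were scaled to the same upper quartile, *Cebpa* (3.45) and *Cebpb* (2.56) remained past the limit, and *Cebpe* (0.88), *Cebpd* (0.42) and *Cebpg* (0.32) were below it. The excess over the median of all genes was 3.69 for *Cebpa*, 2.83 for *Cebpb*, 0.88 for *Cebpe*, 0.59 for *Cebpd* and 0.55 for *Cebpg*, so the first 2 stood well above the general shift and the other 3 by less than 2-fold. The 8 macrophage markers were all higher in MAC than in HP, and their part in the differences of the members was not tested. From ESC to MAC all 5 members passed the limit upwards, where 36.5% of all genes did and 22% passed it downwards. Scaled to the same upper quartile, *Cebpb* (4.61), *Cebpa* (4.43), *Cebpe* (1.22) and *Cebpd* (1.09) stayed past it and *Cebpg* (0.56) did not. The submitters' notes name Bowtie and HOMER for ESC and Cufflinks for the other stages. What part this has in differences from ESC was not tested.

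Summed over the family, FPKM came to 10.3 (ESC), 12.0 (MES), 10.1 (HB), 26.6 (HP) and 225 (MAC). FPKM is per transcript length, so members can be set side by side within a column. *Cebpg* held the largest share up to HB, with 53.2% in ESC, 43.1% in MES and 54.9% in HB. *Cebpb* held the largest share in HP (50.9%) and in MAC (62.4%), where *Cebpa* followed with 26.4%. The RNA pool thus changed its leading member somewhere between HB and HP, an interval that spans the hemogenic endothelium stage not sampled here.

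Fibroblasts had C/EBP RNA before any factor was added. In uFIB at day 12 and day 21, *Cebpa* measured 60.7 and 78.8 FPKM, *Cebpb* 76.9 and 63.2, *Cebpd* 29.7 and 29.0, and *Cebpg* 13.5 and 9.30. *Cebpe* was near 0 in both, at 0.0529 and 0.333 FPKM. The libraries of untreated cells differed by 1.30-fold in *Cebpa*, 1.22-fold in *Cebpb*, 1.02-fold in *Cebpd* and 1.45-fold in *Cebpg*. These folds hold both the 9 days between the harvests and the variation between libraries.

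*Cebpe* had the largest differences between treated and untreated MEFs. At day 12 it measured 0.0529 FPKM (uFIB), 143 (SL), 153 (SFGL) and 14.6 (labelled FGL). At day 21 the untreated cells had 0.333 FPKM, SL had 88.6 and SFGL 116, and the library labelled FGL was listed at 0. All 4 SL and SFGL libraries were thus far above the other 4, a separation that was not counted over all genes. The libraries labelled FGL lay between at day 12 and with the untreated cells at day 21.

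On the log2(FPKM + 1) scale, *Cebpe* was 7.10 higher in SL than in uFIB at day 12 and 6.07 higher at day 21, which ranked 43 among 12328 genes and 27 among 12367. For SFGL the differences were 7.19 (rank 48) and 6.45 (rank 25). In the library labelled FGL it was 3.89 higher at day 12 (rank 51). *Cebpe* alone passed the limit upwards in these 5 comparisons, where 14.2%, 11.9%, 14.7%, 13.9% and 2.96% of all genes did. In the library labelled FGL at day 21, 0 of the 4 members tested passed, where 0.479% of all genes were higher and 0.376% lower. Counting genes that were higher on both days, *Cebpe* passed in SL and in SFGL, as 10.4% and 11.4% of all genes did. In the libraries labelled FGL no member passed on both days, and 0.0438% of genes were higher and 0.0175% lower on both.

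**Figure D2:**
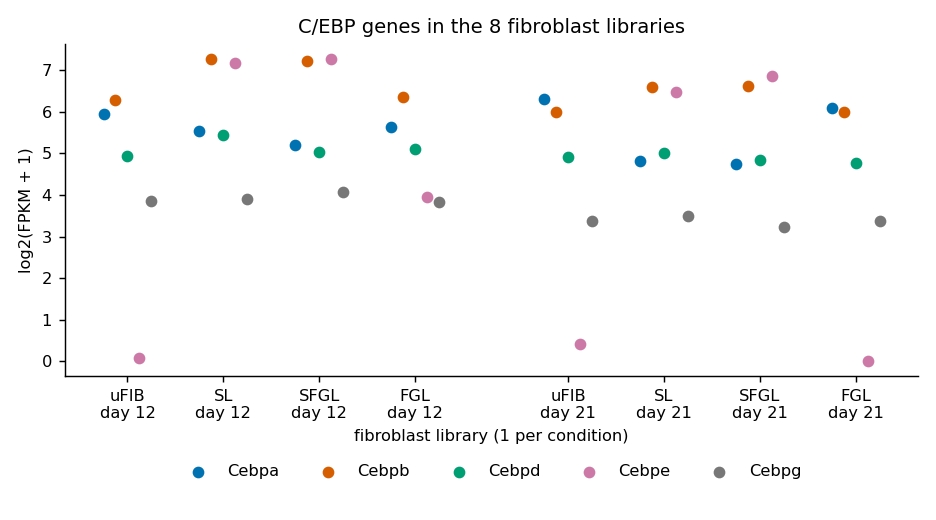
log2(FPKM + 1) of the 5 C/EBP genes in the 8 MEF libraries, 1 point per gene and library, at day 12 on the left and day 21 on the right. Cebpe moves from near 0 in uFIB to 143 and 153 FPKM in SL and SFGL at day 12, while the other members stay within 3.03-fold of their lowest library.

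*Cebpa* went the other way. At day 12 it measured 60.7 FPKM (uFIB), 45.9 (SL), 35.7 (SFGL) and 49.0 (labelled FGL). At day 21 it measured 78.8 FPKM (uFIB), 27.4 (SL), 26.0 (SFGL) and 67.0 (labelled FGL). Its lowest values were in SL and SFGL on both days, and on both days the library labelled FGL lay nearest to uFIB.

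At day 21, *Cebpa* in SL was 1.49 below uFIB on the log2 scale, and in SFGL 1.56 below, both past the limit, where 12.3% and 15.9% of all genes were lower. At day 12 the differences were -0.40 and -0.75 and did not pass it, with 13.5% and 17% of all genes lower. For genes lower on both days the shares were 8.91% in SL and 12.8% in SFGL, and no member was among them.

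*Cebpb* measured 76.9 FPKM (uFIB), 153 (SL), 149 (SFGL) and 81.1 (labelled FGL) at day 12. At day 21 it measured 63.2 FPKM (uFIB), 95.6 (SL), 97.1 (SFGL) and 63.0 (labelled FGL). The 4 SL and SFGL libraries were above the other 4. How many of all genes separate in this way was not counted, and in the limma fit below 25% of genes were higher in SL and 27.4% in SFGL. On the log2 scale *Cebpb* in SL was 0.99 above uFIB at day 12 and 0.59 at day 21, and *Cebpb* in SFGL 0.94 and 0.61, all under the limit. Set against the average of the untreated libraries, it passed the limit at day 12 in both SL and SFGL.

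*Cebpd* measured 29.7 FPKM (uFIB), 42.7 (SL), 31.8 (SFGL) and 33.5 (labelled FGL) at day 12, and 29.0, 31.2, 27.6 and 26.2 in the same order at day 21. *Cebpg* measured 13.5, 13.9, 15.9 and 13.3 FPKM at day 12 and 9.30, 10.2, 8.39 and 9.30 FPKM at day 21. Neither passed the limit against uFIB in any of the 6 comparisons. For *Cebpg*, the 4 libraries of day 12 were all above the 4 of day 21, whatever the treatment. The median of all genes was also lower at day 21, by 0.01 (labelled FGL) to 0.10 (SL) on the log2 scale. The share of all genes that separate by day in this way was not counted.

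With limma over the 8 libraries and both days, *Cebpe* was higher by 6.58 ± 0.99 (SE) on the log2 scale in SL and by 6.82 ± 0.99 in SFGL, with Benjamini-Hochberg adjusted p-values from limma of 0.0042 and 0.0029. *Cebpb* was higher by 0.79 ± 0.13 in SL and 0.78 ± 0.13 in SFGL, with limma adjusted p-values of 0.0057 and 0.0047. *Cebpa* was lower in SFGL, at -1.16 ± 0.31 with a limma adjusted p of 0.024, and in SL its value of -0.94 ± 0.31 had 0.051. Without the libraries labelled FGL the limma adjusted p of *Cebpa* in SL was 0.045, and the SE of *Cebpe* was 0.26 in place of 0.99. For *Cebpd* the limma adjusted p was 0.094 in SL and 0.94 in SFGL, and for *Cebpg* it was 0.64 and 0.80.

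Many genes passed in this fit. At an adjusted p under 0.05, 25% of 12803 genes were higher and 26.6% lower in SL, and 27.4% and 30.6% in SFGL. Without the libraries labelled FGL, the shares were 24.3% and 25.9% in SL and 27% and 30% in SFGL. In the libraries labelled FGL, 0.0156% of genes were higher and 0% lower with limma, against 181 higher and 299 lower genes at an unadjusted p under 0.05, and no member passed either limit, with a limma adjusted p of 0.95 for *Cebpe*, whose values lay far apart on the 2 days. The fit rests on 3 residual degrees of freedom, or 2 without the libraries labelled FGL.

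SFGL and SL had much the same family profile. None of the 5 members differed 2-fold between them at day 12, where 0.229% of all genes were higher in SFGL and 0.61% lower, or at day 21, where 0.773% were higher and 0.437% lower. *Cebpe* in SFGL was 107% of its level in SL at day 12 and 131% at day 21. Between day 12 and day 21, the only member past the limit was *Cebpe* in the libraries labelled FGL, from 14.6 FPKM to a listed 0, where 4.06% of all genes were lower and 3.24% higher. No member passed it in uFIB, where 1.87% of genes were higher and 1.28% lower, in SL (1.77% and 2.93%) or in SFGL (2.2% and 2.75%). All 5 members were lower at day 21 than at day 12 within SL, by 0.42 to 0.72 on the log2 scale, and within SFGL, by 0.20 to 0.85. The median of all genes was also lower, by 0.10 and 0.08, and the share of genes lower by any amount was not counted. *Cebpd* in SFGL ranked only 4200 from the largest fall among 11850 genes. Within uFIB, *Cebpb* (-0.28), *Cebpd* (-0.03) and *Cebpg* (-0.49) were lower at day 21, and *Cebpa* (0.37) and the near-0 *Cebpe* (0.34) higher.

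The family sum was 181 FPKM (uFIB), 399 (SL), 385 (SFGL) and 191 (labelled FGL) at day 12, and 181, 253, 275 and 166 at day 21. In uFIB, *Cebpb* held the largest share at day 12 (42.5%) and *Cebpa* at day 21 (43.6%). In SL, *Cebpb* and *Cebpe* had nearly equal shares, 38.4% and 35.9% at day 12 and 37.8% and 35.0% at day 21. In SFGL, *Cebpe* led with 39.7% and 42.1%.

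**Figure D3:**
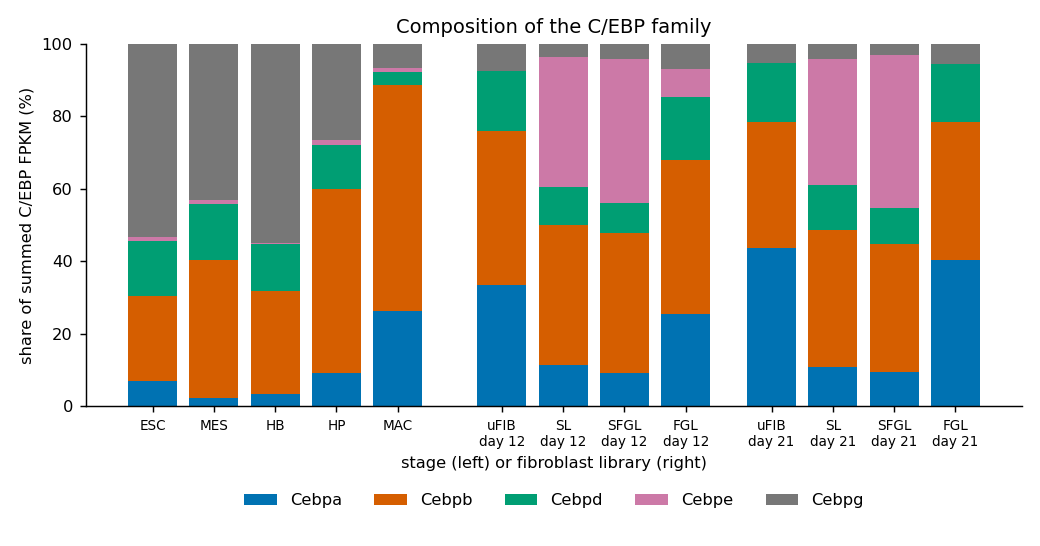
Share in percent of each C/EBP gene in the summed FPKM of the 5 genes, 1 bar for each stage (left) and each MEF library (right). Cebpg leads up to HB with 43.1% to 54.9%, Cebpb leads in HP and MAC with 50.9% and 62.4%, and Cebpe takes 35.0% to 42.1% in SL and SFGL.

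Macrophages from ESCs and MEFs given SL or SFGL thus differed in the member that accompanied *Cebpb*: in MAC it was *Cebpa*, with *Cebpe* at 2.52 FPKM, and in SL and SFGL it was *Cebpe*, with *Cebpa* below its untreated level. These are orders within each table. The macrophage markers *C1qa*, *C1qb* and *C1qc* (complement C1q chains) were 21.5, 289 and 120 FPKM in MAC. They were at most 0.193 FPKM in any MEF library, while some other macrophage markers were present. The 8 summed to 175 FPKM in SL and 239 in SFGL at day 12, against 4.11 in uFIB, and most of the sum in SL was *Fcgr3*. Of the 8, 3 reached 1 FPKM in SL and 4 in SFGL at day 12, with list medians of 0.729 and 1.04 FPKM. *Fcgr3* (142 FPKM in SL), *Cd68* (26.2) and *Adgre1* (5.35) were at least 2-fold higher than in uFIB in SL and SFGL on both days. The 7 neutrophil markers summed to 3.95 FPKM in MAC, against 19.1 in HP. The 4 eosinophil markers summed to 34.3 FPKM in MAC and 1.34 in HP, and the 6 mast cell and basophil markers to 19.2 and 0.262. In MAC, 2 of these neutrophil, 2 eosinophil and 1 mast cell and basophil markers reached 1 FPKM. Their part in the *Cebpe* level of MAC was not tested.

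Granule genes, which include known targets of C/EBPε, were high in the libraries with high *Cebpe*. All 10 genes of the list (*Mpo*, *Elane*, *Prtn3*, *Ctsg*, *Ltf*, *Camp*, *Ngp*, *Lcn2*, *Mmp8*, *Mmp9*) were at least 2-fold higher in SL and in SFGL on both days and in the library labelled FGL at day 12, with list medians on the log2 scale at day 12 of 8.31 (SL), 8.17 (SFGL) and 4.83 (labelled FGL), where the medians of all genes were -0.03, -0.03 and -0.04 and 14.2%, 14.7% and 2.96% of all genes were higher. At day 21 the list medians were 6.14 in SL and 5.73 in SFGL, where 11.9% and 13.9% of all genes were higher. Markers of other blood cells were higher too: in SL, on each day, 5 of 5 progenitor, 6 of 6 red cell, 4 of 4 megakaryocyte and 5 of 5 tested mast cell and basophil markers passed the limit. The progenitor list holds *Tal1*, which SL itself supplies (62.0 FPKM at day 12 and 347 at day 21), so its passing was built in. *Itga2b* is counted in both the progenitor and the megakaryocyte list. The mast cell and basophil markers summed to 836 FPKM in SL at day 12, against 1.57 in uFIB. Most of the sum in SL was *Mcpt8* at 736 FPKM, and the list median there was 12.8 FPKM.

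*Ltf*, which encodes the iron-binding protein lactoferrin of the specific granules, measured 0.0215 FPKM (uFIB), 712 (SL), 261 (SFGL) and 55.2 (labelled FGL) at day 12, and 3.67, 271, 120 and 0.0733 at day 21. *Camp*, the cathelicidin gene, measured 0.279, 1159, 588 and 104 FPKM at day 12 and 4.19, 1116, 422 and 1.19 at day 21. *Ngp*, the gene of neutrophilic granule protein, reached 10714 FPKM in SL at day 12. In each of the 3 genes both uFIB libraries were far below SL and SFGL.

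In the library labelled FGL at day 12, *Cebpe* stood at 10.2% of its SL level, and the 10 granule genes at 4.58% to 20.1%, with a median of 8.44%. The 7 neutrophil markers, all of them on the granule list, stood at 7.67% to 20.1%. The 4 eosinophil markers stood at 20.9% to 41.1%, and progenitor and mast cell and basophil markers at medians of 17.8% and 5.03%. At day 21, *Cebpe* was listed at 0 there, and of 8 granule genes tested 0 were higher and 4 lower (*Elane*, *Ltf*, *Camp* and *Ngp*), where 0.376% of all genes were lower, at a list median of -1.12 against the uFIB library of day 21 described above.

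The neutrophil and eosinophil markers did not keep one proportion to *Cebpe* between SL and SFGL. In SFGL at day 12, the granule list stood at 36.7% to 147% of SL, with a median of 68.2%, and *Cebpe* at 107%; *Mpo* (147%), *Prtn3* (131%) and *Elane* (122%) were above it. The 7 neutrophil markers had a median of 91.2%. At day 21 the granule list stood at 37.8% to 109%, with a median of 73.3%, and *Cebpe* at 131%. The 4 eosinophil markers stood at 183% to 472% at day 12 and at 276% to 555% at day 21. At day 12, *Epx*, eosinophil peroxidase, measured 447 FPKM in SL and 2109 in SFGL, and *Prg2*, the major basic protein of eosinophils, 1032 and 3415. What part the share of each cell type has in the *Cebpe* level was not tested.

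Between HP and MAC the granule list did not move one way. 2 of 6 tested genes were higher in MAC (*Mmp8* by 3.56 and *Ltf* by 1.24 on the log2 scale) and 3 were lower, among them *Mpo* (-2.74) and *Prtn3* (-1.81), at a list median of -0.15 against 0.45 for all genes, of which 33.4% were higher and 13.9% lower. *Mpo* measured 9.57 FPKM in HP and 0.584 in MAC.

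In MEFs, genes of fat cells, which C/EBPα helps to switch on, were lower in SL and SFGL, where *Cebpa* was lowest. At day 12, however, *Cebpa* itself was nearly the same in SL (45.9 FPKM) and in the library labelled FGL (49.0 FPKM). Of 12 genes of the adipocyte and liver list in the MEF table, 9 were tested, and 8 were at least 2-fold lower in SL at day 12, 9 in SFGL at day 12, and 9 in both at day 21, where 13.5%, 17%, 12.3% and 15.9% of all genes were lower. None were in the libraries labelled FGL, where only 0.302% of all genes were lower at day 12 and 0.376% at day 21. The list median in SL was -1.55 at day 12 and -3.83 at day 21, and in SFGL -2.62 and -4.27. *Adipoq*, the gene of the fat cell hormone adiponectin, measured 241 FPKM (uFIB), 45.4 (SL), 18.7 (SFGL) and 173 (labelled FGL) at day 12, and 348, 17.8, 10.6 and 288 at day 21. *Plin1*, a coat protein of lipid droplets, measured 112, 24.9, 8.80 and 76.4 FPKM at day 12 and 150, 2.99, 1.68 and 119 at day 21. Both genes had their highest values in uFIB and the libraries labelled FGL, with no overlap with SL and SFGL, a separation that was not counted over all genes.

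Fibroblast markers moved with them. The 7 markers summed to 7784 FPKM (uFIB), 2598 (SL), 2110 (SFGL) and 6568 (labelled FGL) at day 12, and to 5893, 1573, 1243 and 5959 at day 21. The part that fewer fibroblasts or fat cells have in the lower *Cebpa* was not tested.

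**Figure D4:**
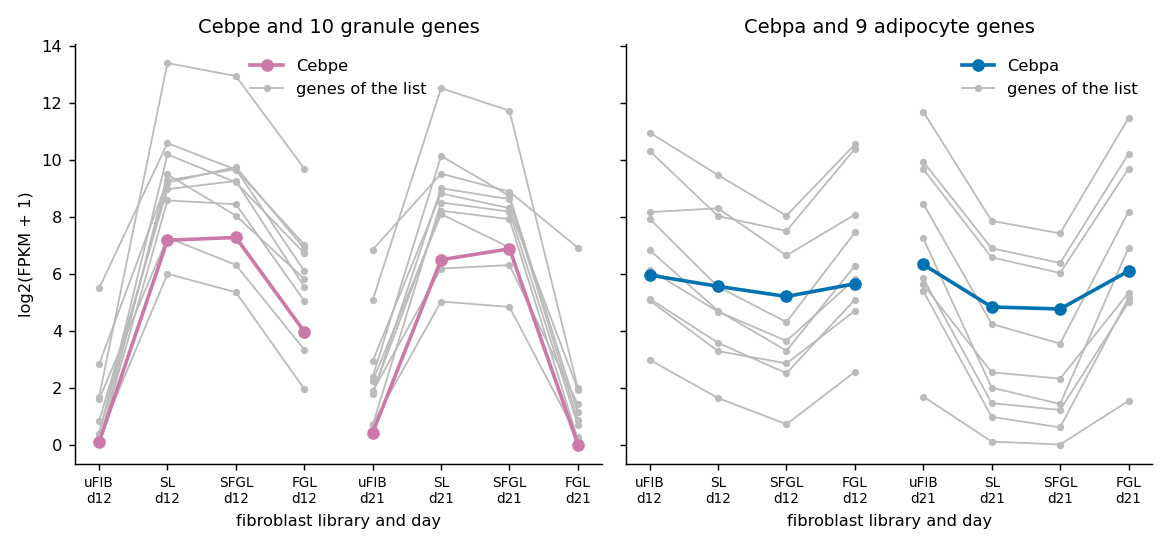
log2(FPKM + 1) in the 8 MEF libraries of Cebpe with the 10 granule genes (left) and of Cebpa with the 9 tested adipocyte genes (right), with lines joining the libraries of 1 day. The granule genes and Cebpe are high in SL and SFGL and intermediate in the library labelled FGL at day 12, and the adipocyte genes and Cebpa are lowest in SFGL on both days, with Scd1 higher in SL (312 FPKM) than in uFIB (284) at day 12.

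In MAC, where *Cebpa* was highest among the stages, some adipocyte genes were high and others were not. *Pparg*, the nuclear receptor of fat cells and macrophages, measured 0.163 FPKM in HP and 60.9 in MAC, *Fabp4* 0.0782 and 80.8, and *Lpl*, lipoprotein lipase, 32.1 and 1548. *Adipoq* stayed at 0.0225 FPKM in MAC and *Plin1* at 0.0221. 3 of the 4 genes tested were higher, where 33.4% of all genes were, with a list median of 5.64.

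*Spi1*, the gene of PU.1, which binds next to C/EBPs at myeloid genes, had FPKM values of 0.196 (ESC), 0.050 (MES), 0.322 (HB), 16.7 (HP) and 111 (MAC). In MEFs it measured 0.0485 FPKM (uFIB), 156 (SL), 171 (SFGL) and 16.9 (labelled FGL) at day 12, and 0.712, 81.6, 102 and 0.0825 at day 21. Like *Cebpe*, it was high in the SL and SFGL libraries and intermediate in the library labelled FGL at day 12.

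The other myeloid partners differed between the settings. *Irf8*, which directs precursors toward monocytes, measured 3.0 FPKM in HP and 127 in MAC and at most 0.687 in any MEF library. *Gfi1*, a repressor needed for neutrophils, measured 1.92 FPKM in HP and 0.0350 in MAC, and at day 12 reached 62.4 with SL and 61.7 with SFGL. *Myb*, a factor of immature blood cells, was 3.50 lower in MAC than in HP on the log2 scale and measured 126 FPKM in SL at day 12, against 0.0848 in uFIB. Of the 6 partners, 3 were higher and 2 lower from HP to MAC (33.4% and 13.9% of all genes), and 3 of the 5 tested were higher in SL on each day (14.2% and 11.9% of all genes).

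Among related zipper factors, *Ddit3*, which encodes the C/EBP homologous protein CHOP, a partner that keeps C/EBPs from their usual sites, had FPKM values of 2.64 (ESC), 3.04 (MES), 2.40 (HB), 7.69 (HP) and 110 (MAC). *Atf4*, a partner of C/EBPγ, measured 25.8, 17.2, 24.6, 32.3 and 67.3 FPKM. All 5 tested were higher in MAC, where 33.4% of all genes were, at a list median of 1.27, but with stages scaled to the same upper quartile 2 were. In SL at day 12, 0 of 6 were higher and 2 were lower, *Tef* and *Atf5*, where 14.2% and 13.5% of all genes were. At day 12, *Ddit3* was at 83.3 FPKM (uFIB), 47.2 (SL) and 74.5 (SFGL).

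The amino acid and stress list, genes that ATF4 with C/EBP partners is known to act on, had 2 of 10 genes higher in MAC (*Nupr1* by 3.34 and *Slc7a11*, a cystine transporter, by 2.88 on the log2 scale) and 1 lower (*Shmt2*), no more than the 33.4% and 13.9% of all genes, and its median of 0.31 was below the 0.45 of all genes. In SL, 4 of 10 were higher at day 12 and 3 at day 21, where 14.2% and 11.9% of all genes were, led by *Slc7a11* with 1.87 FPKM in uFIB and 45.3 in SL at day 12. *Cebpg*, by contrast, was 13.5 and 13.9 FPKM in the same libraries.

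Receptors of the cytokines that act upstream or downstream of C/EBPs also differed by setting. *Csf1r*, the receptor of M-CSF, measured 2.97 FPKM in HP and 234 in MAC, and at most 1.92 in any MEF library. *Csf3r*, the receptor of G-CSF, measured 0.985 FPKM in HP and 2.52 in MAC, and in MEFs of day 12 it stood at 35.5 (SL), 29.2 (SFGL) and 0.0161 (uFIB). *Csf2rb*, the shared chain of the GM-CSF, IL3 and IL5 receptors, was high in both, at 137 FPKM in MAC and 228 in SL at day 12. 5 of 6 tested receptors were higher in MAC, against 33.4% of all genes. In SL 3 of 6 were higher and 2 lower on each day, the lower ones being *Il6st* and *Osmr*, against 14.2% and 13.5% of all genes at day 12 and 11.9% and 12.3% at day 21.

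Of the inflammatory genes, which C/EBPβ and C/EBPδ act on, 8 of 9 tested were higher in MAC, where 33.4% of all genes were, with a median of 3.07 against 0.45. *Msr1*, a scavenger receptor, measured 0.316 FPKM in HP and 589 in MAC, and *Ccl2*, a monocyte attractant, 3.35 and 688. In SL, 5 of 10 were higher at day 12 and 7 of 10 at day 21, where 14.2% and 11.9% of all genes were, led by *Ccl3* and *Il1b*. *Msr1* measured at most 1.18 FPKM in any MEF library.

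Some regulators of C/EBP proteins were measured too, though a change in their RNA gives no protein level. *Trib1*, which directs C/EBPα to degradation, measured 0.770 FPKM in HP and 3.23 in MAC, and *Trib2*, which does the same, 2.52 and 0.208. Of the 5 genes, 2 were higher and 2 lower from HP to MAC, where 33.4% and 13.9% of all genes were, and with equal upper quartiles 0 were higher. In MEFs *Trib2* was 6.95 FPKM in uFIB and 2.55 in SL at day 12.

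**Figure D5:**
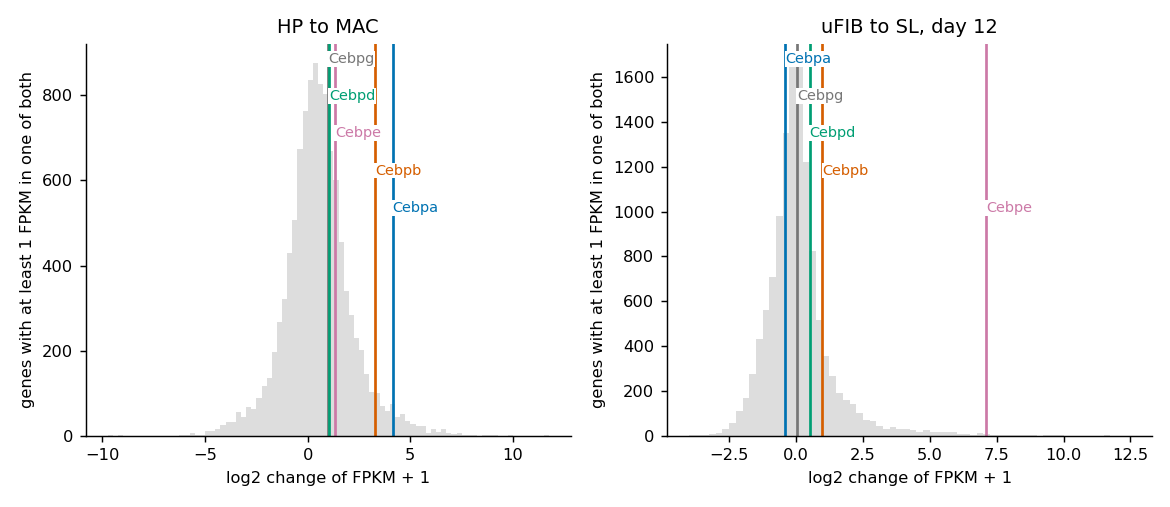
Numbers of genes by log2 change of FPKM + 1, in bins of 0.25, from HP to MAC (left, 10844 genes) and from uFIB to SL at day 12 (right, 12328 genes), with a line for each C/EBP gene. Cebpa (4.14) and Cebpb (3.28) lie in the upper tail from HP to MAC and Cebpe (7.10) in that of SL, while the remaining members lie within the bulk of genes.

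Genes with the most similar profiles were sought over all 13 columns, by the root mean square difference of log2(FPKM + 1) centred within each table, among 10977 genes with at least 1 FPKM in both tables. Nearest to *Cebpa* was *Mcoln2*, a lysosomal channel, at a distance of 0.204, with 0.865 FPKM in HP and 44.9 in MAC. Nearest to *Cebpb* was *Tlr4*, the receptor of bacterial lipopolysaccharide, at 0.249, with 1.84 FPKM in HP, 49.1 in MAC, 9.47 in uFIB and 20.5 in SL at day 12. Nearest to *Cebpd* was *Parp4*, at 0.102.

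Nearest to *Cebpe* was *Hdc*, the histidine decarboxylase that makes histamine, at 0.194. It measured 0.10 FPKM (uFIB), 121 (SL), 138 (SFGL) and 13.5 (labelled FGL) at day 12, and 0.228, 70.0, 155 and 0 at day 21. *Rab44* (0.276) and *Cd33* (0.454), a myeloid surface receptor, followed. Nearest to *Cebpg* was *Tmem185b*, at 0.150, with *Gsto2* also at 0.150 and *Btbd9* at 0.154. The next genes were *Adam15* and *Ctsa* for *Cebpa*, *Casp8* and *Acox3* for *Cebpb*, and *Snx14* and *Tbk1* for *Cebpd*. Without the libraries labelled FGL, 9 of these 15 genes were again among the nearest 3 of their member, and *Mcoln2*, *Tlr4*, *Parp4* and *Hdc* were again the first. With a pseudocount of 0.1, 7 of 15 were, and *Parp4*, *Hdc* and *Tmem185b* kept the first place. Over the stages alone, or over the MEFs alone, 1 of 15 was, *Parp4* and *Rab44*, respectively, so the choice of these genes depends on using both tables.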

How the data were processed

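FPKM values were used as the authors deposited them. For the stages, the study's methods describe SOLiD single-end reads aligned with SHRiMP, kept where unique, freed of duplicates with Picard and summarised per start site over pooled replicates. The submitters' notes name Cufflinks (MES, HB, HP, MAC), Bowtie and HOMER (ESC) and TopHat with Cufflinks (MEFs), on mm10. Removing duplicates limits the highest values. Start sites were summed per gene (each member had 1), each name of the 74 loci that carry several was given its own entry, and 1 column of another series was not used. Changes were computed as log2(FPKM + 1), called at 2-fold with at least 1 FPKM in one of both columns. The deposited columns gave no replicates, so the plan to use limma on replicates was not carried out. limma 3.58.1 (R 4.3.3, trend, Benjamini-Hochberg) was fitted to the MEFs with treatment and day as terms, over 12803 genes with at least 1 FPKM in a library, a fit added after seeing the data. No count test was run: too few low values (14.9% to 19.0%) shared a step for reads to be recovered, and depth per sample is unknown. Alternatives were a pseudocount of 0.1 or 0.001, the same upper quartile, no FPKM limit or 5 FPKM, 4-fold, the mean of both uFIB libraries, and the highest start site. The members, lists and rule for named genes (all members, the 3 nearest profiles, the 2 largest rises and falls of each list, *Spi1*, *Ddit3* and *Atf4*) were chosen with earlier results of these data known. Further list genes were named as examples after their values were seen, as were the motifs and the changed settings for the nearest profiles. *Dbp*, *Stat3*, *Cd36* and *Pdgfrb* of the lists were not matched in the tables. Code was tested on simulated data: for uFIB at day 12 against a copy with 200 planted 8-fold changes, 200 were recovered. Python 3.11.15, pandas 2.3.3, NumPy 2.4.6 and matplotlib 3.10.9 were used.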

Additional observations from a re-analysis of the deposited data

Results flagged for a closer look

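5 member and treatment pairs had differences from uFIB of opposite sign on the 2 days, each from 1 library a day, and the difference between days was not tested. *Cebpe* in the libraries labelled FGL was 3.89 higher than uFIB at day 12 and 0.41 lower (-0.41) at day 21 on the log2(FPKM + 1) scale, that is 14.6 FPKM and a listed 0. In the same libraries, *Cebpd* differed by 0.17 and -0.15 and *Cebpb* by 0.075 and -0.0029. In SFGL, *Cebpd* differed by 0.095 and -0.072 and *Cebpg* by 0.22 and -0.13. Apart from *Cebpe*, these values lie within the difference between the uFIB libraries of the 2 days for *Cebpb* (-0.28) and *Cebpg* (-0.49), and above it for *Cebpd* (-0.03).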

How the results depend on the processing

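The counts of members past 2-fold kept within 1.5 times under most alternatives other than limma: 52 of 56 for the stages and 80 of 84 for the MEFs. From HB to HP, 2 members became 1 with at least 5 FPKM and 0 at 4-fold. From HP to MAC, 4 became 2 with the same upper quartile and 2 at 4-fold. Against the mean of both uFIB libraries, the count of members higher at day 12 went from 1 to 2 in SL and in SFGL (*Cebpb* joined), and at 4-fold the count lower at day 21 went from 1 to 0 in both. With limma over both days, added after seeing the data, members higher on both days went from 1 to 2 in SL and in SFGL (*Cebpb* joined), with or without the libraries labelled FGL; members lower went from 0 to 1 (*Cebpa*) in SFGL in both fits and in SL without the libraries labelled FGL. Smaller pseudocounts moved low values most: from HB to HP, *Cebpa* went from 1.35 to 2.52 (0.1) and 2.83 (0.001) and *Cebpd* from 0.86 to 1.22 and 1.28, and from HP to MAC *Cebpg* went from 0.99 to 1.08 and 1.09, so that these 2 passed 2-fold. With the sum taken without *Cebpg*, the leading share was 69.2% in HP, 66.9% in MAC, 46.0% (uFIB), 39.8% (SL), 41.4% (SFGL) and 45.5% (labelled FGL) at day 12, and 46.0%, 39.4%, 43.4% and 42.9% at day 21, with the same leading member. Of the list counts, 91 of 96 stayed; with the same upper quartile, from HP to MAC the count higher was 2 for related zipper factors, 0 for regulators of C/EBP proteins and 1 for granule genes, and the count lower was 3 for amino acid genes, and for inflammatory genes in SL at day 21 it was 1. Stricter limits lower counts by construction, and the scaling lowers MAC against HP; any other cause was not tested. No called difference of a member changed sign. The highest start site gave the same values, since each member has 1. No paired analysis was possible because the stage columns pool the numbered replicates, and leaving out a replicate was not run for the same reason. The MEFs carry no shared replicate numbers beyond 1 library per condition, and their libraries of 1 day were matched through the day term. Read depth is unknown, so values near 0, such as *Cebpe* in uFIB, have no stated precision.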
